A study of Mus musculus with 21 samples.

Results

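The genes described here are 8 genes of cholesterol synthesis and of the response to sterols, Hmgcs1, Idi1, Fdft1, Sqle, Lss, Cyp51, Msmo1 and Insig1. They were taken as listed, and each was measured through the probe sets annotated to that gene symbol alone. All 8 had such a probe set, 21 probe sets in all, out of 18193 genes with 34945 probe sets of 1 symbol. A probe set is a group of short oligonucleotides on the array that reads 1 transcript, and each gene stands here for its probe set with the highest mean signal over all arrays.

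RNA was measured on Affymetrix arrays in monocytes and macrophages sorted from female C57BL/6 mice of 7 to 8 weeks, with 3 biological replicates in each of 7 groups. Peritonitis was started with zymosan, a yeast cell wall preparation. The peritoneal cells were monocytes at 4 h (Ly-6B+, Ly-6G-), monocytes and macrophages at 18 h (Ly-6B+ or low, Ly-6G-) and macrophages at 72 h (F4/80+, CD11b+). At 168 h, macrophages with medium to high F4/80 and Ly-6B and macrophages with high F4/80 and without Ly-6B were sorted apart. The groups without a zymosan time were bone marrow monocytes (Ly-6B+, Ly-6G-) and resident peritoneal macrophages with high F4/80 and high CD11b. The labels call only the resident macrophages naive. Ly-6B marks inflammatory monocytes and neutrophils, Ly-6G neutrophils, and F4/80 and CD11b are surface markers of macrophages and myeloid cells. The labels do not say whether mice were pooled for a replicate, so p-values measure the spread between these samples.

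Cells make cholesterol from acetyl-CoA through mevalonate, farnesyl diphosphate and squalene, and a further chain of enzymes turns squalene into lanosterol and then cholesterol. When sterols run low in the endoplasmic reticulum, the escort protein SCAP carries the SREBP transcription factors to the Golgi, where proteases release them, and they then raise transcription of the genes of this pathway. INSIG proteins hold SCAP back when sterols are plentiful. In macrophages the same balance includes cholesterol taken up with lipoproteins and engulfed cells and cholesterol exported by ABC transporters.

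The signals are linear values scaled by the authors so that the 2% trimmed mean of each array is 500.0, and precision is limited by having 3 arrays a group. Differences were tested on log2(signal + 15), so that a fold change understates the change of a low gene. A gene was called when its log2 change was 1 or more in size and its Benjamini-Hochberg adjusted p in limma, over 12167 genes, was under 0.05. All 8 genes passed the filter on low signal. Scaling bears on the 4 h group, whose arrays had a median over the tested genes 0.36 log2 units below bone marrow, 0.41 below resident macrophages and 0.29 below 18 h. With arrays set to a common median instead, the split of calls over all genes was 1610 higher and 1116 lower for 4 h against bone marrow, in place of 913 and 1766. It was 1981 higher and 1695 lower for 4 h against resident macrophages, in place of 1123 and 2636, and 737 higher and 999 lower for 18 h against 4 h, in place of 1329 and 555. That setting raises each log2 change of 4 h over bone marrow or resident macrophages and lowers each change of 18 h against 4 h by these amounts.

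The sorted groups carried the macrophage or monocyte markers of their labels. The summed signal of 9 resident macrophage markers was 9575 to 14625 at 4 h, 32795 to 33299 at 18 h, 150158 to 184709.8 at 72 h, 98780.5 to 118918 in Ly-6B+ and 182256 to 210170.3 in Ly-6B- macrophages of 168 h, 191572 to 206896 in resident macrophages and 4869 to 6198 in bone marrow. Timd4, C1qc and Marco, which mark resident macrophages, averaged 3.52 ± 1.60, 3.74 ± 1.02 and 4.23 ± 1.42 in bone marrow monocytes (SD, n = 3), under the 15 added before the logarithm. Nearly all of the sum in bone marrow therefore came from the other markers of that list. The 5 measured classical monocyte markers summed to 117524 to 122378 at 4 h, 72218 to 73398 at 18 h, 10354 to 19601 at 72 h, 35836 to 44159 and 2468 to 5623 in Ly-6B+ and Ly-6B- cells of 168 h, 5884 to 6852 in resident macrophages and 82671 to 85128 in bone marrow. Markers of other cells stood apart in some arrays. Neutrophil markers summed to 179171 in bone marrow replicate 3, against 87471 and 61108 in its other replicates. All bone marrow arrays were above every array of the other groups, which reached 14545. Progenitor markers were also above all other groups, at 33185 to 87092 in bone marrow and up to 9747 elsewhere. At 72 h, replicate 2 had 11693 for B cell and 4366 for mast cell markers, against 824 and 988 for B cell and 210.1 and 169 for mast cell markers in the other replicates. Resident macrophage markers were also highest at 4 h in replicate 2, at 14625, against 10058 and 9575. T and NK cell markers summed to 1009 in Ly-6B- replicate 1 of 168 h, against 387 and 439 in its other replicates. Without 72 h replicate 2, 4 h replicate 2 and bone marrow replicate 3 together, the number of the 8 genes called was unchanged in the 6 comparisons they enter.

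The promoters of 4 of the genes are printed to set the starts of 3 genes that rose at 4 h beside that of Lss, which was not called. RefSeq windows of 300 bases on GRCm38.p6, from 250 bases before the start to 50 bases from it on, were matched for 6 of the 8 genes, and those of Fdft1 and Sqle are not shown here. They are chr13:119690101-119690400 on the plus strand for Hmgcs1, chr13:8885356-8885655 on the plus strand for Idi1, chr8:64733529-64733828 on the minus strand for Msmo1 and chr10:76531355-76531654 on the plus strand for Lss. Capitals mark matches to 3 motifs searched on both strands, the sterol regulatory element TCACNCCAC bound by SREBP, the palindrome TCACGTGA that SREBP also binds, and the CCAAT box bound by NF-Y, with which SREBP acts.
Hmgcs1: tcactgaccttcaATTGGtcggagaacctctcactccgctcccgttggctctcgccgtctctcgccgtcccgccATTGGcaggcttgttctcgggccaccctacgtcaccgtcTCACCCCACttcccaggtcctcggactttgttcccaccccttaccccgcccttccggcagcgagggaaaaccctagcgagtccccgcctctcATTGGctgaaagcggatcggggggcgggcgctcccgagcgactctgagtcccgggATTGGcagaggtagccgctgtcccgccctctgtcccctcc
Idi1: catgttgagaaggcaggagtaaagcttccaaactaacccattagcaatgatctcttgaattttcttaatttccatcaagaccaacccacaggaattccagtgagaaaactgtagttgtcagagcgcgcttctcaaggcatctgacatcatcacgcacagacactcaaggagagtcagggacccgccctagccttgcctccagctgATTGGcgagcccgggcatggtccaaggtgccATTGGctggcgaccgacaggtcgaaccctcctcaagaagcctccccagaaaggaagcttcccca
Msmo1: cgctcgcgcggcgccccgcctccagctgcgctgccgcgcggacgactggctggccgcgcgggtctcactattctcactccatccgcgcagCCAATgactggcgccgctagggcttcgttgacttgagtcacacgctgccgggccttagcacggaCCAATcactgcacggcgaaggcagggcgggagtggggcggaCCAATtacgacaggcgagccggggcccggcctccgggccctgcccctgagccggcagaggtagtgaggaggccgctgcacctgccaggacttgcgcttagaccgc
Lss: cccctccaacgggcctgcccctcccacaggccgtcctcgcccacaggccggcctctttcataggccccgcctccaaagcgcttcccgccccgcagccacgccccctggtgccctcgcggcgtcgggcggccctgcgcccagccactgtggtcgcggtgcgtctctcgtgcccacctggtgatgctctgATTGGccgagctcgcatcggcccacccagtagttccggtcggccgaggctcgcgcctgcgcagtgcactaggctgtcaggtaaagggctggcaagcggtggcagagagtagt

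Hmgcs1 was the 1 of the 6 genes with the letters TCACNCCAC, as TCACCCCAC on the plus strand with its first base at -137 from the start, in a window that also held CCAAT boxes at -237, -176, -45 and 11. The element was present in 1.436% of all 27025 genes with such a window. All 6 genes held a CCAAT box, as did 41.058% of all genes, and none held TCACGTGA, which 1.125% of all genes had. Positions are those of the leftmost base of a match as printed, from 1 at the start and -1 before it. Msmo1 had CCAAT boxes at -160, -96 and -55, Idi1 at -45 and -14, Lss at -62, Cyp51 at -29 and Insig1 at -216. A match is a description of letters and no evidence of binding.

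In the F test of limma over the 7 groups all 8 genes had an adjusted p under 0.05, and so did 69.8% of all genes tested. The adjusted p was lowest for Cyp51 at 5.72e-13 and highest for Lss at 0.0124. Group means differed most for Cyp51, by 22.5 times between 4 h monocytes and Ly-6B- macrophages of 168 h, and for Sqle, by 20.9 times between 4 h monocytes and resident macrophages. They differed by 3.42 times for Insig1 and by 1.73 times for Lss. The plot of signals by array shows 7 genes with their highest group at 4 h and Lss within a narrow range.

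**Figure D1:**
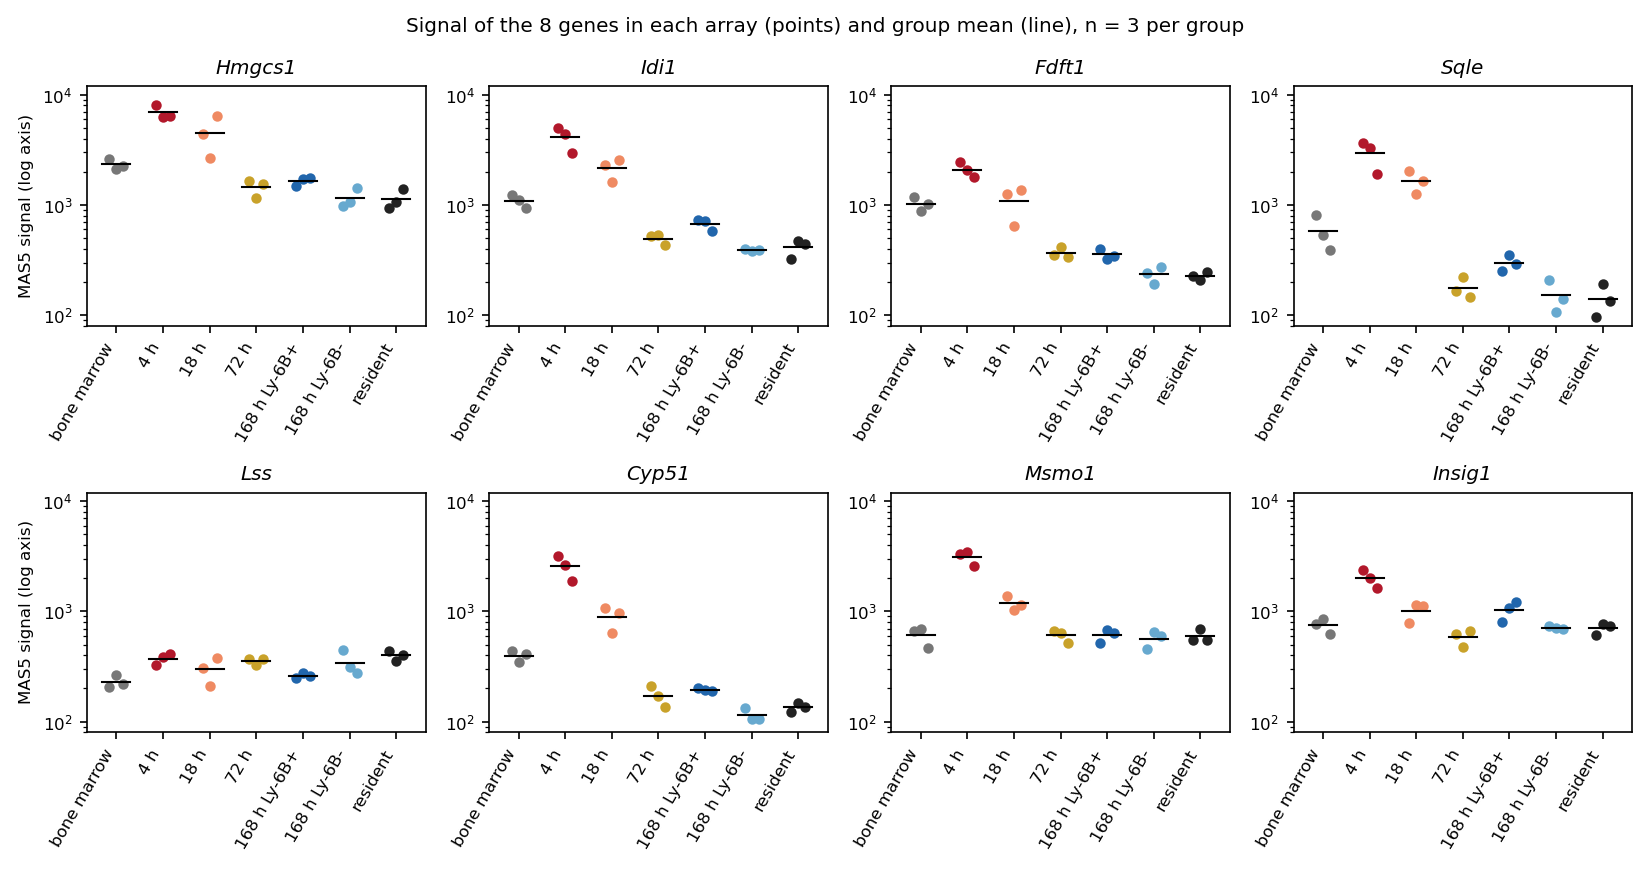
MAS5 signal of each of the 8 genes (log axis) in every array, with the 7 groups on the horizontal axis, points for arrays and lines for the group mean of 3 arrays. Cyp51 stood at 1898 to 3152 at 4 h, against 346 to 436 in bone marrow monocytes and 123 to 148 in resident macrophages, while Lss stayed between 206 and 445 in all arrays.

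The first comparison sets monocytes of the inflamed peritoneum against those of the bone marrow. At 4 h, 7 of the 8 genes were called higher than in bone marrow monocytes and none lower, against a background of 7.50% of all genes called higher and 14.5% called lower. All 8 had every 4 h array above every bone marrow array, as did 20.1% of all genes. The median log2 change of the 8 genes was 1.72, beside -0.14 over all genes tested. In bulk RNA of sorted cells, fewer cells of a type and less RNA per cell cannot be told apart.

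At the head of the pathway, Hmgcs1 encodes the cytosolic HMG-CoA synthase, which makes the precursor of mevalonate. Its signal was 8137, 6314 and 6346 in the 4 h arrays, against 2629.8, 2097 and 2260.4 in bone marrow. Every 4 h array stood far above every bone marrow array, and the log2 change was 1.56 ± 0.23 (SE, limma adjusted p = 1.02e-05). Idi1 encodes the isomerase of isopentenyl diphosphate, the building block of farnesyl diphosphate. It gave 4979, 4371 and 2968 at 4 h, against 1224, 1104 and 943 in bone marrow. Its 4 h mean was 3.76 times that of bone marrow, a log2 change of 1.87 ± 0.19 (adjusted p = 9.36e-08).

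Fdft1, squalene synthase, takes the step that commits farnesyl diphosphate to sterols. Its signal was 2429, 2063 and 1795 at 4 h, against 1173, 872 and 1027 in bone marrow. The groups did not overlap, but with a log2 change of 1.02 ± 0.21 (adjusted p = 4.77e-04) it was the called gene nearest to the fold threshold. Sqle, squalene epoxidase, is a rate-controlling enzyme of the later pathway. It had 3621, 3287 and 1921 at 4 h, against 807, 530.4 and 387 in bone marrow, with the third 4 h array well under the other two. The means differed by 5.12 times and the log2 change was 2.34 ± 0.30 (adjusted p = 1.55e-06).

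Lss, lanosterol synthase, closes the rings of the sterol. It had 325, 385 and 411 at 4 h, against 206, 267 and 219.6 in bone marrow. The arrays did not overlap and the adjusted p was 0.00766, but the log2 change of 0.66 ± 0.19 stayed under the fold threshold. It was the 1 of the 8 genes not called at 4 h.

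Cyp51, the lanosterol demethylase, moved most. It gave 3152, 2664 and 1898 at 4 h, against 436, 346 and 409 in bone marrow, a ratio of means of 6.48 and a log2 change of 2.63 ± 0.20 (adjusted p = 1.25e-09). Msmo1, a monooxygenase that removes methyl groups from the sterol ring after Cyp51, had 3296, 3455 and 2606 at 4 h, against 665, 697 and 470.4 in bone marrow. Its log2 change was 2.33 ± 0.18 (adjusted p = 1.28e-09), so both demethylation enzymes stood at more than 5 times their bone marrow mean. Insig1, the sterol sensor that is itself induced by SREBP, gave 2365, 2025 and 1630.1 at 4 h, against 775, 850.4 and 621 in bone marrow. Its rise of 1.40 ± 0.19 on the log2 scale (adjusted p = 2.69e-06) went the same way as that of the enzymes.

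Neutrophil, progenitor, proliferation and B cell markers moved in the same comparison. Neutrophil markers, 8 of 9 measured, summed to 13499 to 14545 at 4 h and 61108 to 179171 in bone marrow, and 5 progenitor markers to 1111 to 1391 at 4 h and 33185 to 87092 in bone marrow. Proliferation markers, 7 of 8 measured, summed to 7447 to 8586 at 4 h and 74619.9 to 92178 in bone marrow, and B cell markers, 5 of 6 measured, to 2613 to 3686 at 4 h and 10934 to 16174 in bone marrow. Dendritic cell markers summed to 796 to 1373 at 4 h and 479 to 688 in bone marrow. Resident macrophage and classical monocyte markers were also higher, and erythroid and eosinophil markers lower, at 4 h without overlap. The part of all these markers in the result was not tested. The call of Fdft1 ended, at log2 changes of 0.73 to 0.99, with a larger pseudocount, the mean of its probe sets, array weights, the Gapdh covariate, or without 4 h replicate 1 or bone marrow replicate 2, and the calls of the other 6 genes held in every alternative but single probe sets, where 1 of the 5 of Hmgcs1 was not called, at 0.79 ± 0.35 (limma adjusted p = 0.0716). Lss was called too, at 1.03, with arrays set to a common median. The other probe set of Fdft1 that passed the filter was called, at 1.22 ± 0.18. The mean of Fdft1 also took in probe sets that did not pass, with group means of 8.57 to 55.0.

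**Figure D2:**
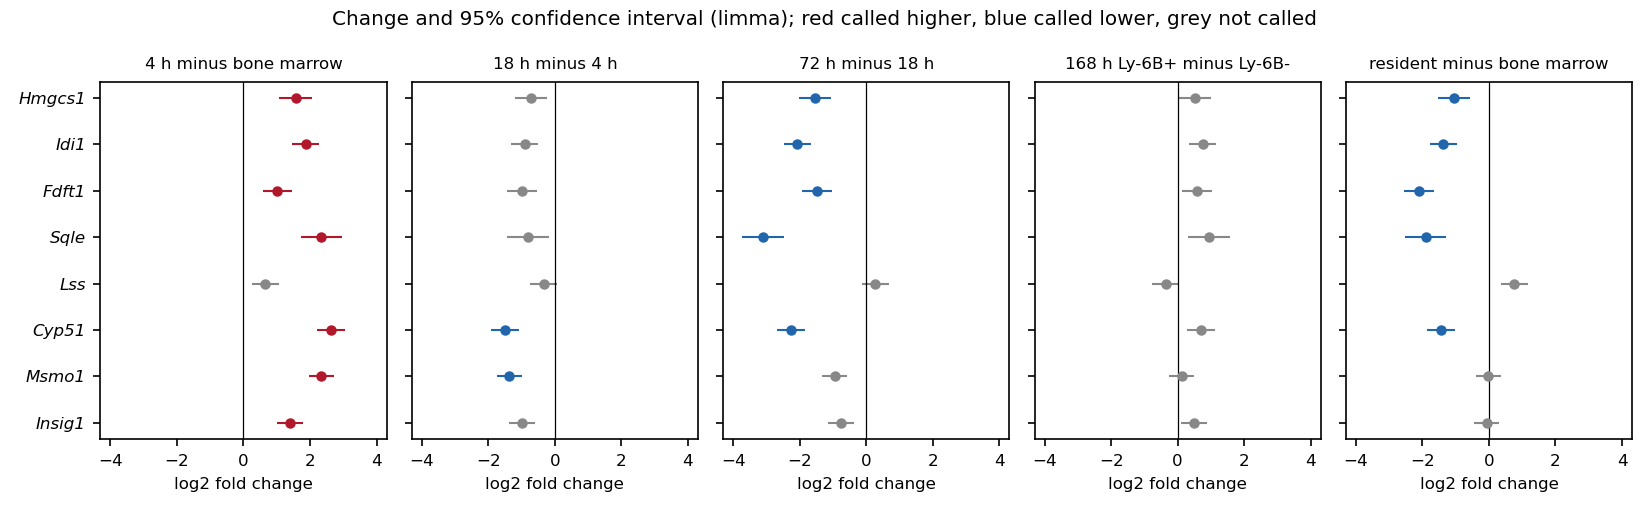
Log2 fold change of the 8 genes (horizontal axis) in 5 comparisons, with points for limma's estimate and bars for its 95% confidence interval, red where called higher, blue where called lower and grey where not called. At 4 h 7 genes lay above 1, at 72 h 5 lay below -1 against 18 h, and in resident macrophages 5 lay below -1 against bone marrow.

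Against resident macrophages of the naive peritoneum, the cells already there before zymosan, the same 7 genes were called higher at 4 h and none lower, with 9.23% of all genes called higher and 21.7% lower. This comparison shares its 4 h arrays with the previous one. The median log2 change of the 8 genes was 2.86, beside -0.22 over all genes. Sqle had 3621, 3287 and 1921 at 4 h, against 95.4, 194 and 134 in resident macrophages, a log2 change of 4.24 ± 0.30 (limma adjusted p = 1.80e-10). Cyp51 followed at 4.08 ± 0.20 (adjusted p = 1.01e-12), from 4 h arrays that all stood far above the resident ones. The changes of Idi1, Fdft1, Hmgcs1, Msmo1 and Insig1 were 3.25, 3.11, 2.61, 2.35 and 1.47. Lss averaged 374 ± 44.2 at 4 h and 399.8 ± 41.0 in resident macrophages (SD, n = 3 each), and its log2 difference of -0.10 had an interval of -0.50 to 0.31. Resident macrophage and classical monocyte markers stood far apart between these groups, at the sums given above. Neutrophil markers summed to 13499 to 14545 at 4 h and 6221 to 6299.9 in resident macrophages, progenitor markers to 1111 to 1391 at 4 h and 6160.2 to 9279 in resident macrophages, and B cell markers to 2613 to 3686 at 4 h and 481 to 1100.5 in resident macrophages. Dendritic cell markers summed to 796 to 1373 at 4 h and 517 to 549 in resident macrophages. Proliferation markers summed to 7447 to 8586 at 4 h and 8647 to 18682 in resident macrophages. The ratio of 3' to 5' Gapdh signal was 2.47 to 2.70 at 4 h and 2.04 to 2.29 in resident macrophages. The part of these in the result was not tested.

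The next comparison sets cells sorted at 18 h against those sorted at 4 h. Cyp51 and Msmo1 were called lower at 18 h than at 4 h and no gene was called higher, with 4.56% of all genes called lower and 10.9% higher. Of the 8 genes, 7 had an adjusted p under 0.05 and a lower signal whatever the fold, as did 12.6% of all genes. The median log2 change was -0.94, beside 0.14 over all genes tested. Classical monocyte markers were lower and resident macrophage markers higher in all 18 h arrays than at 4 h. Neutrophil markers summed to 2422 to 3296 at 18 h and 13499 to 14545 at 4 h, and B cell markers to 4942 to 5958 at 18 h and 2613 to 3686 at 4 h. Progenitor markers summed to 1599 to 1938 at 18 h and 1111 to 1391 at 4 h, and dendritic cell markers to 261 to 557 and 796 to 1373. The Gapdh 3'/5' signal ratio, a sign of RNA quality, was 1.64 to 2.12 at 18 h and 2.47 to 2.70 at 4 h. The part of these in the result was not tested.

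Cyp51 had 1072, 643 and 963 at 18 h, against 3152, 2664 and 1898 at 4 h, and fell by 1.51 ± 0.20 on the log2 scale (adjusted p = 4.84e-06). Msmo1 gave 1384, 1039.8 and 1151 at 18 h, against 3296, 3455 and 2606 at 4 h, and fell by 1.38 ± 0.18 (adjusted p = 3.67e-06). In both genes all 18 h arrays lay below all 4 h arrays. Insig1, at 781, 1154 and 1113 in the 18 h arrays, and Fdft1, at 1249, 649 and 1378, missed the fold threshold narrowly, with log2 changes of -0.98 and -0.99.

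Idi1 had 2295, 1628 and 2584 and Sqle 2039, 1254 and 1652 at 18 h, with log2 changes of -0.91 and -0.81 against 4 h. Hmgcs1 was spread most, at 4379.9, 2676 and 6346, so that its highest 18 h array reached the level of the lower 4 h arrays. Lss gave 307, 211 and 379.6 at 18 h, a log2 change of -0.34 against 4 h (adjusted p = 0.184). Replicate 2 was the lowest 18 h array for 7 of the 8 genes, and replicate 3 the lowest 4 h array for 6 of them. With arrays set to a common median, 7 of the 8 genes were called, all of them lower at 18 h. That setting lowers every log2 change of this comparison by 0.29. Over all genes tested, 999 were then called lower, in place of 555. Without 4 h replicate 3 or without 18 h replicate 3, 6 of the 8 genes were called, all lower at 18 h. Over all genes, leaving out an array gave 1847 to 1920 calls in either direction, in place of 1884.

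The cells sorted at 72 h were F4/80+ CD11b+ macrophages, taken with another gate than those at 18 h, and 5 of the 8 genes were called lower at 72 h than at 18 h, with 3.46% of all genes called lower. None was called higher, with 9.04% of all genes called higher. The median log2 change was -1.51, beside 0.03 over all genes. Resident macrophage markers were higher and classical monocyte markers lower at 72 h than at 18 h without overlap. Progenitor markers summed to 5108 to 8071 at 72 h and 1599 to 1938 at 18 h, proliferation markers to 15332 to 49505 at 72 h and 8358 to 9766 at 18 h, and neutrophil markers to 4172 to 5746 at 72 h and 2422 to 3296 at 18 h. The part of these in the result was not tested.

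Sqle changed most, with 165, 220.0 and 145 at 72 h, against 2039, 1254 and 1652 at 18 h. It fell by 3.11 ± 0.30 on the log2 scale (adjusted p = 9.89e-08). Cyp51 gave 210.1, 169.9 and 137 at 72 h, against 1072, 643 and 963 at 18 h, and fell by 2.26 ± 0.20 (adjusted p = 3.42e-08). Idi1 gave 521, 535 and 431 at 72 h, against 2295, 1628 and 2584 at 18 h, and fell by 2.08 ± 0.19 (adjusted p = 7.13e-08). In these 3 genes the groups stood wide apart, with the lowest 18 h array at more than 3 times the highest 72 h array.

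Hmgcs1 had 1649.7, 1160.2 and 1547 at 72 h, against 4379.9, 2676 and 6346 at 18 h, and fell by 1.54 ± 0.23 (adjusted p = 2.93e-05). Fdft1 had 353, 412 and 335 at 72 h, against 1249, 649 and 1378 at 18 h, and fell by 1.47 ± 0.21 (adjusted p = 2.03e-05). Msmo1, at 664, 638 and 519.9, and Insig1, at 621, 472 and 667, missed the fold threshold at 72 h, with log2 changes of -0.95 and -0.77 and adjusted p values of 3.34e-04 and 0.00319. All 7 of these genes had 72 h arrays that lay below every 18 h array, as did 18.3% of all genes. Lss went the other way, with 372, 329 and 368 at 72 h and a log2 change of 0.28 (adjusted p = 0.318). The call of Fdft1 ended, at -0.94, with the mean of its probe sets, which took in those under the filter. Its other probe set that passed the filter was called, at -1.56 ± 0.18.

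By 72 h none of the 8 genes was called different from resident macrophages in limma, with 0.731% of all genes called, and 1 of them, Fdft1, had an unadjusted p under 0.05, as did 10.8% of all genes. Fdft1 averaged 366 ± 40.4 at 72 h and 227 ± 19.5 in resident macrophages (SD, n = 3 each), with no overlap of arrays and an adjusted p of 0.209. Its other probe set overlapped, with 185, 179 and 159 at 72 h and 139.6, 173 and 149 in resident macrophages. The log2 difference had an interval of -0.12 to 0.72 for Cyp51, -0.29 to 0.95 for Sqle and -0.35 to 0.40 for Msmo1, all of which include 0.

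At 168 h the question was how macrophages that still carried Ly-6B differed from those that did not. No gene of the 8 was called between them in limma, with 3.95% of all genes called, although 6 had an unadjusted p under 0.05, as did 20.7% of all genes. In Ly-6B+ cells, 6 genes had every array above every Ly-6B- array, against 11.3% of all genes, and the median log2 difference was 0.56, beside -0.02 over all genes. Cyp51 and Idi1 were higher at an adjusted p under 0.05 but under the fold threshold, as were 3.55% of all genes at any fold.

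Idi1 gave 729, 721 and 575 in Ly-6B+ cells, against 396, 382 and 393 in Ly-6B- cells, a log2 difference of 0.76 ± 0.19 (adjusted p = 0.0168). Cyp51 gave 203, 196 and 188 in Ly-6B+ cells, against 132, 107 and 105 in Ly-6B- cells, a difference of 0.71 ± 0.20 (adjusted p = 0.0323). The other probe set of Cyp51 did not share it, at 67.5, 70.5 and 85.0 in Ly-6B+ cells and 87.4, 54.2 and 106 in Ly-6B- cells, signals near the filter. The largest difference was that of Sqle, with 249, 355 and 294 in Ly-6B+ cells, against 209, 106 and 140.3 in Ly-6B- cells, 0.95 ± 0.30 on the log2 scale with an adjusted p of 0.0558.

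Fdft1 gave 401, 325 and 342 in Ly-6B+ cells, against 239.6, 191 and 272 in Ly-6B- cells. Hmgcs1 gave 1493, 1729 and 1757 in Ly-6B+ cells, against 986, 1065 and 1415 in Ly-6B- cells, and Insig1 806, 1072 and 1206 in Ly-6B+ cells, against 736, 709 and 693 in Ly-6B- cells. None of these 3 genes overlapped between the groups with the probe set used, but the other probe set of Fdft1 did, at 202, 194 and 247 in Ly-6B+ cells and 181, 166 and 209 in Ly-6B- cells, a log2 difference of 0.19 ± 0.18 (adjusted p = 0.628). With the probe sets used, the adjusted p values of Fdft1, Hmgcs1 and Insig1 were 0.11, 0.188 and 0.115. Msmo1 overlapped, at 522, 680.2 and 639 in Ly-6B+ cells and 453, 646 and 594 in Ly-6B- cells, and so did Lss, at 247, 274 and 259 in Ly-6B+ cells and 445, 310.1 and 274 in Ly-6B- cells. Classical monocyte markers, at the sums given above, were also higher in the Ly-6B+ arrays, and resident macrophage markers lower. B cell markers summed to 2125 to 3601 in Ly-6B+ cells and 962 to 1384 in Ly-6B- cells, mast cell markers to 587 to 717 in Ly-6B+ cells and 254 to 473 in Ly-6B- cells, and dendritic cell markers to 234 to 351 in Ly-6B+ cells and 522 to 659 in Ly-6B- cells. Progenitor and neutrophil markers were also higher in Ly-6B+ cells without overlap. Their part in these differences was not tested. The labels do not say whether same-numbered arrays of these groups were paired, and the data gave only a hint of it. With the replicate number as a block 0 of the 8 genes was called, as without it. Sqle was called, at 1.18, without Ly-6B- replicate 1, the array with the high T and NK cell markers, whose part in this was not tested.

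Each 168 h group was set against resident macrophages as well. None of the 8 genes was called in limma between Ly-6B- macrophages and resident macrophages, and 0 had an unadjusted p under 0.05, against 3.56% of all genes, and 0.0411% of all genes were called. The log2 differences lay between -0.24 for Lss and 0.10 for Sqle. Ly-6B+ macrophages had 1 gene called higher, Sqle, with 1.98% of all genes called higher and 2.40% lower. Sqle gave 249, 355 and 294 in Ly-6B+ cells, against 95.4, 194 and 134 in resident macrophages, a log2 change of 1.05 ± 0.30 (adjusted p = 0.0306).

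That call was lost with a larger pseudocount, at 0.86, with the Gapdh covariate, at 1.08, and without any 1 of 4 arrays, Ly-6B+ replicates 2 and 3 and resident replicates 1 and 3, at 0.82 to 1.05, and the adjusted p ran from 0.0167 to 0.169 over its alternatives. Of the 8 genes, 7 had an unadjusted p under 0.05 in limma, as did 21.6% of all genes. Idi1 was higher by 0.69 ± 0.19 (adjusted p = 0.0274), under the fold threshold. Fdft1, Hmgcs1, Insig1 and Cyp51 were higher by 0.61, 0.56, 0.52 and 0.49, with adjusted p values of 0.0852 to 0.155 and no overlap of arrays. The other probe set of Cyp51 did not share its difference, at 0.04. Lss, in contrast, had all Ly-6B+ arrays below all resident arrays, with means of 259.9 ± 13.8 in Ly-6B+ cells and 399.8 ± 41.0 in resident macrophages and an adjusted p of 0.0639. Classical monocyte markers were higher and resident macrophage markers lower in Ly-6B+ cells than in resident macrophages, at the sums given above. B cell markers summed to 2125 to 3601 in Ly-6B+ cells and 481 to 1100.5 in resident macrophages. Mast cell markers were also higher in Ly-6B+ cells, and dendritic cell and neutrophil markers lower, without overlap. The part of these markers in the differences was not tested. All 3 comparisons of 168 h share arrays with each other.

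The groups without a zymosan time also differed from each other. In resident macrophages 5 of the 8 genes were called lower than in bone marrow monocytes, Fdft1, Sqle, Cyp51, Idi1 and Hmgcs1, with 10.2% of all genes called lower. None was called higher, with 12.9% of all genes called higher. Fdft1 gave 226, 208 and 247 in resident macrophages, against 1173, 872 and 1027 in bone marrow, and fell by 2.09 ± 0.21 on the log2 scale (adjusted p = 7.40e-08). Sqle had 95.4, 194 and 134 in resident macrophages, against 807, 530.4 and 387 in bone marrow, and fell by 1.91 ± 0.30 (adjusted p = 2.07e-05). Neither gene overlapped between the groups.

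Cyp51 fell by 1.45 ± 0.20 (adjusted p = 4.74e-06), to 123, 148 and 136 in resident macrophages. Idi1 fell by 1.38 ± 0.19 (adjusted p = 6.17e-06), to 323, 475 and 445, and Hmgcs1 by 1.04 ± 0.23 (adjusted p = 8.35e-04), to 939, 1058 and 1404. Msmo1 and Insig1 were not called. Msmo1 averaged 598 ± 85.1 in resident macrophages and 611 ± 122 in bone marrow, and Insig1 averaged 708 ± 82.3 in resident macrophages and 749 ± 117 in bone marrow (SD, n = 3 each). The intervals of their log2 differences were -0.39 to 0.36 and -0.46 to 0.32.

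Lss had 441, 359 and 399.8 in resident macrophages, against 206, 267 and 219.6 in bone marrow, with no overlap, a log2 difference of 0.76 ± 0.19 and an adjusted p of 0.00281. It was higher in resident macrophages where 5 other enzymes were lower. Proliferation markers summed to 8647 to 18682 in resident macrophages and 74619.9 to 92178 in bone marrow, and neutrophil markers to 6221 to 6299.9 in resident macrophages and 61108 to 179171 in bone marrow. Progenitor markers summed to 6160.2 to 9279 in resident macrophages and 33185 to 87092 in bone marrow, and B cell markers to 481 to 1100.5 in resident macrophages and 10934 to 16174 in bone marrow. The part of these in the result was not tested. The calls of Cyp51 and Hmgcs1 ended with probe sets averaged, at -0.98 and -0.71. The mean of Cyp51 took in a probe set that did not pass the filter, with group means of 12.0 to 102. Its other probe set that passed the filter was called, at -1.29. The call of Hmgcs1 also ended with the Gapdh covariate, at -0.86, without resident replicate 1, at -0.92, or bone marrow replicate 1, at -0.95. It ended with each of the 4 other probe sets of Hmgcs1 as well, at -0.94 to -0.06.

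The order of the 7 groups was set by each gene's mean signal, and neighbours in that order were compared in the same fit. For Cyp51 the means ran from 4 h (2571) through 18 h (893) and bone marrow (397) to Ly-6B+ cells of 168 h (196), 72 h (172), resident macrophages (135) and Ly-6B- cells (114). Its first 2 steps were called, bone marrow and Ly-6B+ cells differed at an adjusted p of 6.62e-04 under the fold threshold, and none of the last 3 steps differed beyond the spread. Sqle, Idi1 and Hmgcs1 had the same 5 groups at the top of that order. Of their steps, that of Sqle between 18 h and bone marrow was called (adjusted p = 3.49e-04), and Idi1 at 18 h stood above bone marrow with no overlap (adjusted p = 5.00e-04).

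Fdft1 did not differ beyond its spread between 18 h and bone marrow, at 1092 ± 389 and 1024 ± 150.5 (SD, n = 3, adjusted p = 0.935), and the step from bone marrow to 72 h was called (adjusted p = 1.39e-05). Msmo1 held 2 levels above a floor, 4 h at 3119 ± 451 and 18 h at 1192 ± 176, and its other 5 groups averaged 564 to 614 with no neighbours that differed. Insig1 was the 1 gene with Ly-6B+ cells of 168 h in second place, at 1028 ± 204, next to 18 h at 1016 ± 204, and it was lowest at 72 h, at 587 ± 102. For Lss, whose order began with resident macrophages and ended with bone marrow, no neighbours differed.

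A gene can have several probe sets, and 17 probe sets of the 8 genes passed the filter when all probe sets were fitted. At 4 h against bone marrow all 17 changed in the positive direction and 14 were called higher, as the plot of probe sets shows, with 8.03% of all 22148 probe sets called higher. The exceptions were both probe sets of Lss and 1 of the 5 of Hmgcs1. Idi1 gave 1.87 ± 0.20 and 1.88 ± 0.24 from its probe sets, and Cyp51 gave 2.63 ± 0.20 and 2.24 ± 0.24. The probe sets of Msmo1 differed more, at 2.33 ± 0.18 and 1.36 ± 0.35. At 72 h against 18 h, 11 of the 17 were called lower, with 3.36% of all probe sets. In resident macrophages against bone marrow 8 were called lower and 1 higher, with 9.89% and 12.3% of all probe sets. That 1 was the other probe set of Lss, with 105, 101 and 126 in resident macrophages, against 36.7, 36.5 and 46.4 in bone marrow (limma adjusted p = 0.00117).

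**Figure D3:**
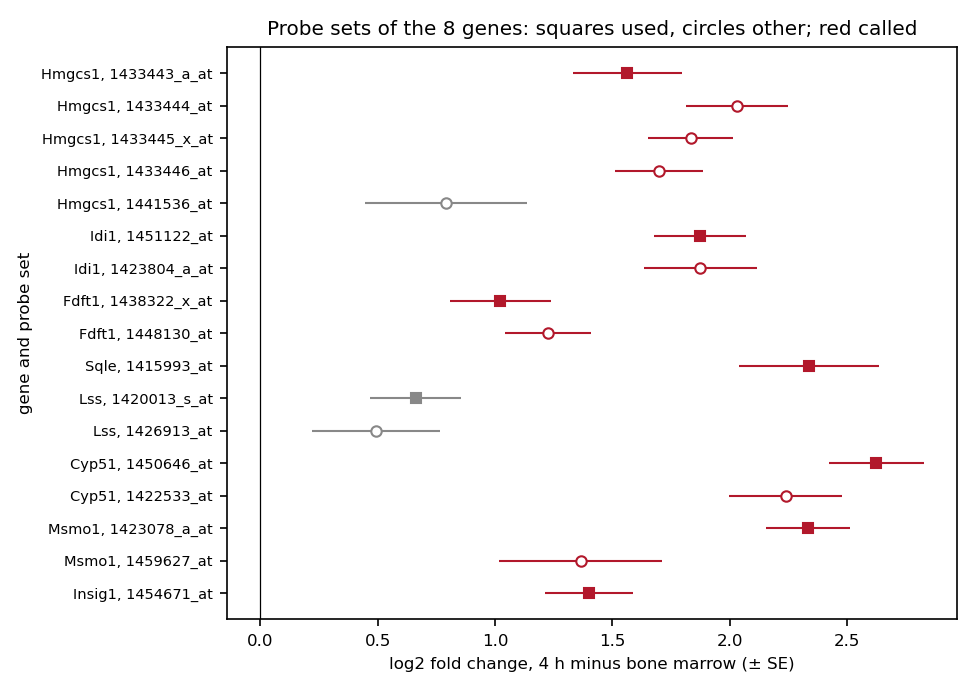
Log2 fold change at 4 h against bone marrow (horizontal axis, bars ± SE of the limma fit over all probe sets, n = 3 arrays a group) for 17 probe sets of the 8 genes, squares for those used and circles for the others, red where called. All 17 lay above 0, and those not called were both Lss probe sets and 1 of Hmgcs1.

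Around the 8 genes, 43 other genes of cholesterol synthesis, sterol sensing, and uptake, storage and export were listed, and 34 were tested. The other 9 were not analysed here. At 4 h against bone marrow, 6 of the 34 were called higher and 4 lower, with 7.50% of all genes called higher and 14.5% lower. The median log2 change was 0.22 for enzymes up to farnesyl and geranylgeranyl diphosphate and -0.28 for enzymes from farnesyl diphosphate to cholesterol. It was -0.15 for sensing genes and 0.00344 for genes of uptake, storage and export. The median of the 8 genes was 1.72 and that over all genes -0.14.

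Of the 5 tested enzymes from acetyl-CoA to farnesyl and geranylgeranyl diphosphate besides Hmgcs1 and Idi1, 0 rose and 1 fell at 4 h against bone marrow. Fdps, farnesyl diphosphate synthase, had 531, 508 and 368 at 4 h, against 441, 309.5 and 456 in bone marrow, with a log2 change of 0.22 (adjusted p = 0.52). The gene that fell was Mvk, mevalonate kinase, at 32.8, 31.0 and 13.8 at 4 h, against 134, 119 and 36.3 in bone marrow, low signals with a change of -1.34 ± 0.46 (adjusted p = 0.0212). With arrays set to a common median that call ended, at -0.98. Fdps was called in other comparisons. It was higher by 2.06 ± 0.25 at 4 h than in resident macrophages (adjusted p = 6.75e-07), where Mvk was the 1 enzyme of this list called lower, at -1.86 ± 0.46. Fdps fell by 1.26 ± 0.25 at 72 h against 18 h and fell by 1.84 ± 0.25 in resident macrophages against bone marrow (adjusted p = 6.49e-04 and 4.41e-06).

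Of 7 tested enzymes from farnesyl diphosphate to cholesterol besides those among the 8 genes, 2 rose and 1 fell at 4 h. Sc5d, a desaturase near the end of the pathway, gave 2496, 2292 and 1375 at 4 h, against 778, 597 and 894 in bone marrow, and rose by 1.40 ± 0.20 (adjusted p = 6.20e-06). It fell by 1.22 ± 0.20 at 18 h against 4 h (adjusted p = 5.04e-05), the 1 gene of the 34 called lower there, with 4.56% of all genes. With arrays set to a common median, Lbr, Stard4 and Ch25h were called lower there as well, at -1.20, -1.13 and -1.03. Against resident macrophages, the genes of this list called at 4 h were Sc5d and Hsd17b7, both higher, at 1.79 ± 0.20 and 1.34 ± 0.23. Hsd17b7, a sterol ketoreductase, gave 697, 603 and 514 at 4 h, against 290.3, 136 and 320.5 in bone marrow, and rose by 1.30 ± 0.23 (adjusted p = 9.49e-05). Tm7sf2, a sterol reductase, fell, with 217, 212 and 162 at 4 h, against 469, 482 and 545 in bone marrow (-1.28 ± 0.20, adjusted p = 2.43e-05). With arrays set to a common median the call of Tm7sf2 ended, at -0.92. Lbr, which has the same reductase activity, was called lower in resident macrophages than in bone marrow, at a log2 difference of -1.69 ± 0.17 (adjusted p = 6.61e-08).

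None of the 9 tested sensing genes besides Insig1 was called at 4 h against bone marrow. Srebf1, which encodes an SREBP, gave 1895, 1957 and 1881 at 4 h, against 1503, 1441 and 1335 in bone marrow, a change of 0.42 ± 0.12 (adjusted p = 0.00656). Srebf2, the SREBP gene most tied to cholesterol synthesis, overlapped, with 389, 657 and 425 at 4 h, against 565, 424 and 259.7 in bone marrow (adjusted p = 0.494). Scap gave 578, 584 and 632 at 4 h, against 896, 1271 and 1368 in bone marrow, a log2 change of -0.94 just under the threshold. Against resident macrophages, 3 of the 9 sensing genes were called lower at 4 h, with 21.7% of all genes called lower. These were Mbtps2, Mbtps1 and Scap, the proteases that release SREBP and its escort, at -1.59 ± 0.15, -1.24 ± 0.13 and -1.02 ± 0.18 (adjusted p = 1.13e-08, 7.81e-08 and 6.83e-05). With arrays set to a common median, the calls of Mbtps1 and Scap ended, at -0.83 and -0.60, and that of Mbtps2 held. Erlin1, a cholesterol-binding protein of the endoplasmic reticulum, was the 1 sensing gene called in resident macrophages against bone marrow, at -1.30 ± 0.16 (adjusted p = 8.72e-07). Of all genes, 12.9% were called higher and 10.2% lower there.

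**Figure D4:**
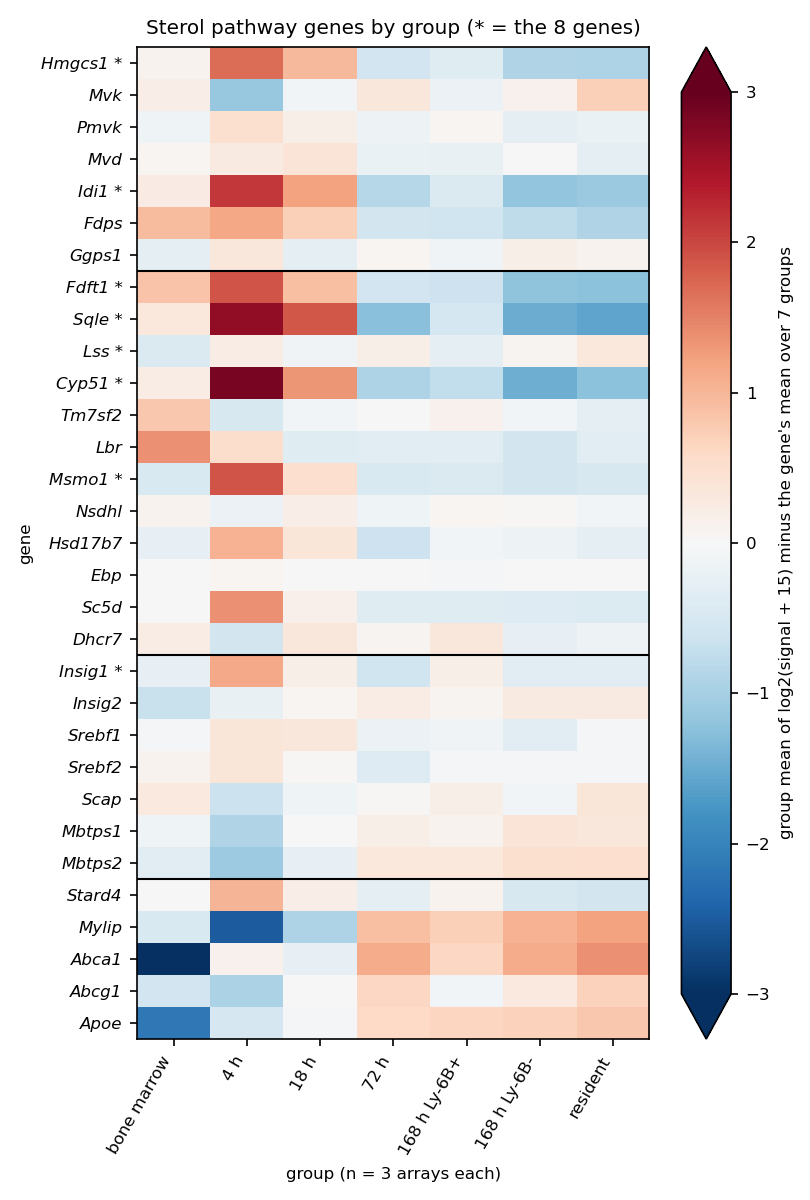
Group mean of log2(signal + 15) minus each gene's mean over the 7 groups (colour, n = 3 arrays a group) for 31 sterol pathway genes in rows. Stars mark the 8 genes, and lines stand between synthesis to farnesyl and geranylgeranyl diphosphate, squalene to cholesterol, sensing, and uptake and export. The enzymes with a high 4 h column include Hmgcs1, Idi1, Fdft1, Sqle, Cyp51, Msmo1, Sc5d and Hsd17b7, and Mvk is low there. Fdps was called higher at 4 h than in resident macrophages but not against bone marrow.

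Of 13 tested genes of uptake, storage and export, 4 rose and 2 fell at 4 h against bone marrow, where 7.50% and 14.5% of all genes were called higher and lower. Abca1, the transporter that exports cholesterol, gave 4352, 3990.2 and 3885 at 4 h, against 221, 196 and 181 in bone marrow, and rose by 4.26 ± 0.20 (adjusted p = 8.68e-13). Cyp7b1, an oxysterol hydroxylase, rose by 2.08 ± 0.30, Apoe, the lipoprotein component that accepts exported cholesterol, by 1.64 ± 0.13, and Stard4, a sterol carrier, by 1.02 ± 0.17 (adjusted p = 8.69e-06, 1.87e-09 and 5.63e-05). Cyp27a1, a sterol hydroxylase, fell by 1.53 ± 0.20 (adjusted p = 2.10e-06). Mylip, a ubiquitin ligase induced by sterols, gave 406, 488 and 390.2 at 4 h, against 1745, 1509 and 2185 in bone marrow, and fell by 2.03 ± 0.16 (adjusted p = 1.52e-09).

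Mylip and Abca1 were both high in the macrophage groups. Mylip was called higher at 18 h than at 4 h, by 1.57 ± 0.16, and higher at 72 h than at 18 h, by 1.83 ± 0.16 (adjusted p = 1.34e-07 and 2.28e-08). Abca1 was called higher at 72 h than at 18 h, by 1.36 ± 0.20, while Lipa, the lysosomal acid lipase, was called higher at 18 h than at 4 h, by 1.53 ± 0.24 (adjusted p = 1.78e-05 and 2.96e-05). Against resident macrophages, 1 of the 13 genes was called higher at 4 h and 6 lower, with 9.23% of all genes called higher and 21.7% lower. Stard4 was higher by 1.58 ± 0.17, and Mylip changed most among those lower, at -3.70 ± 0.16 (adjusted p = 1.37e-07 and 1.26e-13). With arrays set to a common median, 2 of the 13 were called higher and 4 lower. Mylip had 6237, 5374 and 5548 in resident macrophages and Abca1 12997, 7433 and 9129. In resident macrophages against bone marrow 5 of the 13 were called higher and none lower, with 12.9% of all genes called higher and 10.2% lower, and Abca1 led at 5.49 ± 0.20, followed by Cyp7b1, Apoe, Mylip and Abcg1 at 3.59, 2.94, 1.66 and 1.27 (Abca1 adjusted p = 5.64e-15). Between the 168 h groups, Cyp7b1 was the 1 gene of the 34 that was called, with 3.95% of all genes called. It gave 540.1, 604 and 602 in Ly-6B+ cells, against 158, 246 and 229.6 in Ly-6B- cells (1.42 ± 0.30, adjusted p = 0.00408).

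**Figure D5:**
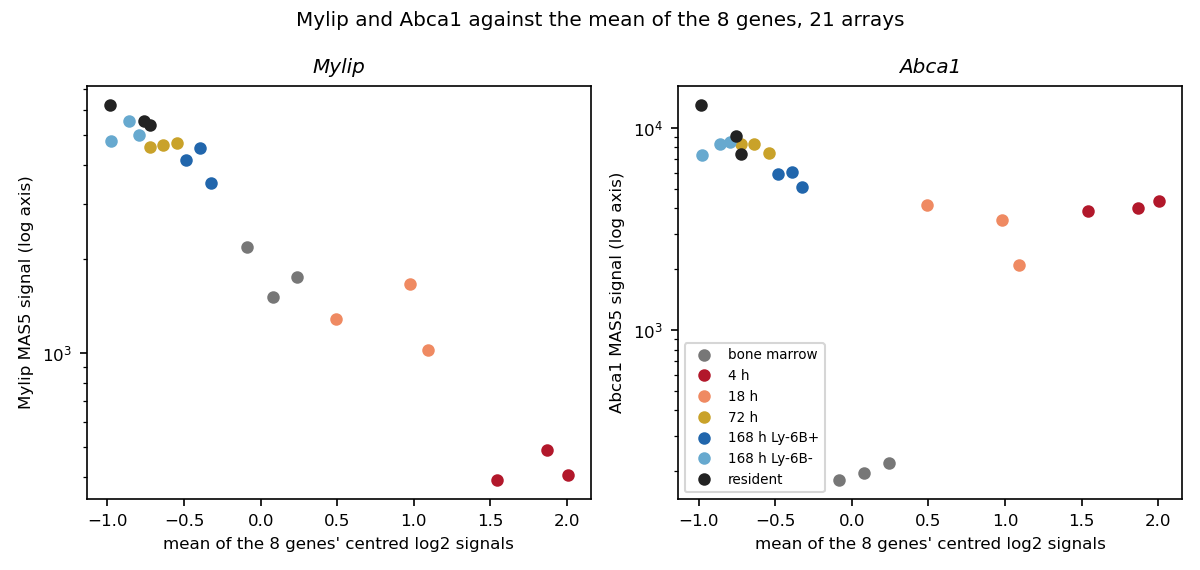
MAS5 signal of Mylip and of Abca1 (log axes) against the mean of the 8 genes' log2 signals, each centred on its own mean, in 21 arrays coloured by group. Mylip was lowest, at 390.2 to 488, in the 4 h arrays where the 8 genes were highest, while Abca1 was lowest, at 181 to 221, in bone marrow monocytes.

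Over the 21 arrays, the signals of 7 of the genes moved together, with Pearson r of 0.66 to 0.99 between their log2 values in 21 pairs, and Lss stood apart, with r of -0.15 to 0.19 to the others. These values describe arrays that fall into 7 groups, so they reflect the group means. The 10 genes whose log2 signal was most like the mean of the 8 genes over the same arrays were Mmadhc, Vcan, Prkx, Dmkn, Plec, Slc2a1, N4bp1, Il1b, Sestd1 and Sting1, with r of 0.971 to 0.956. None was in the lists of sterol genes, and Vcan is one of the classical monocyte markers used above. Il1b, the inflammatory cytokine, averaged 19912 ± 1492 at 4 h, 4279 ± 1395 at 18 h, 282 ± 207 at 72 h and 789 ± 473 in bone marrow. Slc2a1, the main glucose transporter, averaged 8079 ± 928 at 4 h, 2549 ± 416 at 18 h, 883 ± 208 at 72 h and 1021 ± 176 in bone marrow (SD, n = 3). Both had the order of 4 h, 18 h, bone marrow and 72 h seen for most of the 8 genes. Among the 34 sterol genes, Stard4 and Sc5d were nearest, with r of 0.91 each. Mylip ran opposite at -0.97, place 12158 of 12159 genes ranked by r, and was singled out for that after its values were seen.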

How the data were processed

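Intensity values were the authors' linear MAS5 signals from Affymetrix Expression Console 1.2, per the submitters' processing notes and the deposited value table, with every array scaled to a 2% trimmed mean of 500.0 as computed from the table. Per the labels' protocols, 100 ng of RNA was amplified in a 2-cycle protocol after cell sorting and TriZol extraction. The table held 45101 probe sets on 21 arrays. Of these, 34945 had 1 gene symbol, 932 several and 9211 none in the platform annotation, and the rest were control probe sets.

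From these values log2(signal + 15) was computed, where 15 is the rounded 20th percentile of all values. Each gene stood for its probe set with the highest mean. The test took the 12167 of 18193 genes that exceeded the table's median signal, 80.6, in 3 or more arrays. All 21 arrays were fitted with limma 3.58.1 in R 4.3.3 (lmFit, then eBayes with trend, 14 residual degrees of freedom) and 9 comparisons were drawn from the fit. p-values were adjusted by Benjamini-Hochberg over all genes tested. The 7-group F test came from the same fit, as did 21 pairwise contrasts. These compared neighbours in the order of groups, which was set by mean signal. A second fit took 22148 probe sets singly. The fit was tested on simulated data. With 3 arrays against 3, an exact permutation test of 1 gene could not go below a p of 0.10, so limma's p-values were used.

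The genes and lists were chosen with earlier results of these data known. The genes named were the 8 genes, the called genes with the largest change in each list and direction, other called or compared genes of the lists with their values, and the 10 genes most correlated with the 8. The labels do not say whether same-numbered arrays share an animal or a day. A hint of pairing between the 168 h groups came from the deviations of same-numbered arrays from their group means. Their r was 0.30, 0.28 and 0.18. In no other comparison did every r exceed 0.1, but for 72 h against 18 h they were 0.11, 0.09 and 0.19. Promoter sequences were RefSeq's, on GRCm38.p6. The alternatives were 2 other pseudocounts, 2 other scalings, 2 other filters, averaged probe sets, a covariate for the Gapdh 3'/5' ratio, the replicate block, array weights, eBayes without trend, only the 6 arrays compared, no minimum fold, and each array left out. Other probe sets, the common array median for genes of the sterol lists, and a fit without 72 h replicate 2, 4 h replicate 2 and bone marrow replicate 3, were added after seeing the data. Detection calls and raw scanner files were not used here. RNA quality differed, with a Gapdh 3'/5' signal ratio of 1.64 to 2.89.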

Additional observations from a re-analysis of the deposited data

How the results depend on the processing

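Of 564 recomputed log2 changes of called genes, 543 kept their call, 21 lost it and 0 reversed, and 22 of 27 called gene and comparison pairs held in every alternative other than single probe sets. Of 897 changes that were not called, 38 gained a call and 42 changed sign without one, none larger than 0.71. These tallies leave out some results of single probe sets. A probe set of Hmgcs1 was not called at 4 h against bone marrow or resident macrophages, at 0.79 and 0.85. It was also not called at 72 h against 18 h, at -0.30, or in resident macrophages against bone marrow, at -0.06. The other probe set of Msmo1 was not called at 18 h against 4 h, at -0.93. That of Lss was called higher in resident macrophages than in bone marrow. For 18 h against 4 h, 7 of the 8 genes in place of 2 were called with a common array median. Over all genes, 999 were called lower there with that median, in place of 555. With no minimum fold, 7 of the 8 genes were called. With an array left out, 2 to 6 were called, 6 without 4 h replicate 3 or 18 h replicate 3. For Ly-6B+ macrophages against resident macrophages, 0 in place of 1 were called with 4 times the pseudocount and with the Gapdh covariate, 2 with no minimum fold, and 0 to 1 with an array left out. For Ly-6B+ against Ly-6B- macrophages, 1 in place of 0 was called with array weights, 2 with no minimum fold, and 0 to 1 with an array left out. For resident macrophages against bone marrow, 3 in place of 5 were called with the mean of probe sets, and 4 to 5 with an array left out. Leaving out an array gave 6 to 7 for 4 h against bone marrow, 7 for 4 h against resident macrophages, 5 to 6 for 72 h against 18 h, 0 for 72 h and for Ly-6B- macrophages against resident macrophages, and 8 in the F test, which gave 7 without 72 h replicate 2, 4 h replicate 2 and bone marrow replicate 3. The cause of these changes was not tested. The replicate block, shared by all 7 groups, changed no count, and a pairing of the 168 h groups alone was not tested. With the block 5 genes were called for resident macrophages against bone marrow, 7 for 4 h against either and 2 for 18 h. The counts were 5 for 72 h against 18 h, 1 for Ly-6B+ against resident macrophages and 0 otherwise. Over all genes, no minimum fold gave 5670 calls in place of 2679 for 4 h against bone marrow, 6897 in place of 3759 for 4 h against resident macrophages, 4871 in place of 1884 for 18 h, 3703 in place of 1521 for 72 h against 18 h, 140 in place of 89 for 72 h against resident macrophages, 993 in place of 480 and 1111 in place of 533 for Ly-6B+ against Ly-6B- and resident macrophages, and 5777 in place of 2808 for resident macrophages against bone marrow. With only the 6 arrays compared, 72 h against resident macrophages gave 50 and Ly-6B- against resident macrophages 0 in place of 5, and with an array left out these gave 61 to 193, 193 without 72 h replicate 3, and 2 to 9. Signals near or under the filter of 80.6, such as those of Mvk, are limited by brightness over background and are least precise.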
